A study of Mus musculus with 22 samples.

Results

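Pparg and 7 genes reported as its targets in fatty liver were followed in livers of mice on a high-fat diet and mice on chow. The 8 genes were Pparg, Cd36, Fabp4, Cidea, Cidec, Plin4, Mogat1 and Cfd. They were chosen by symbol from the 23227 genes of the mRNA count table and the 23167 promoters of the H3K27ac count table, and all 8 symbols were present in both. All mice were wild-type C57BL/6J, killed at 24 weeks of age after a night without food. High-fat-diet mice were given the S3282 diet (Bioserve) for 16 weeks, beginning at 8 weeks of age, and chow mice ate a Purina Prolab Isopro diet throughout. Each diet had 3 mRNA libraries and 3 libraries of histone H3 acetylated at lysine 27 (H3K27ac), a mark of active promoters and enhancers, all from powdered whole liver. The labels give no sex, and do not say whether the libraries of a diet came from separate mice. Below, a liver therefore stands for a library. Nor do the labels say whether the mRNA and H3K27ac libraries of 1 number came from 1 animal.

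PPARγ, the protein of Pparg, is a nuclear receptor that binds fatty acids and related lipids. It pairs with a retinoid X receptor on DNA at direct repeats of AGGTCA spaced by 1 base (DR1) and recruits coactivators. It is abundant in fat tissue, where it drives fat cell formation and lipid storage, and normally low in liver, where mouse studies link a raised level to fatty liver. Its targets include proteins that take up fatty acids (Cd36), carry them in the cell (Fabp4), join them into glycerides (Mogat1) and coat or enlarge lipid droplets (Plin4, Cidea, Cidec). Cfd encodes adipsin, a complement protease secreted by fat cells.

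The promoter windows of 4 of these genes, whose H3K27ac and mRNA values are compared further on, are printed. Those of Plin4 and Cidec, whose values are compared there too, are not printed. Each is the 250 bases before a transcription start, taken from RefSeq on GRCm38.p6 and written 5′ to 3′ on the gene's strand. The count tables were made on mm9 and give no promoter boundaries, so these windows are not the counted intervals. Pparg has 3 windows, for 3 starts. Capitals mark matches on either strand to the DR1 motif AGGTCANAGGTCA with at most 2 mismatches, or to its single repeat AGGTCA with none.
Pparg window 1, chr6:115360894-115361143, plus strand: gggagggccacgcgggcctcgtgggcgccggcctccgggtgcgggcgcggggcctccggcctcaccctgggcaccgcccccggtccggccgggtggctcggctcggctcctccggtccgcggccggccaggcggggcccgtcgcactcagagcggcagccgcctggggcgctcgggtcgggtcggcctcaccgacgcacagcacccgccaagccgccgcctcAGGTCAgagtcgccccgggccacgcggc
Pparg window 2, chr6:115362099-115362348, plus strand: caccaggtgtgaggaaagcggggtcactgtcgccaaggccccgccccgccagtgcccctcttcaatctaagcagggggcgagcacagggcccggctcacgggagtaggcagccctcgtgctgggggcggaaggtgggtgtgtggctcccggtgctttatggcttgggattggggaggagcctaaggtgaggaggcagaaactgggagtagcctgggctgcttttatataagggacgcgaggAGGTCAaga
Pparg window 3, chr6:115421816-115422065, plus strand: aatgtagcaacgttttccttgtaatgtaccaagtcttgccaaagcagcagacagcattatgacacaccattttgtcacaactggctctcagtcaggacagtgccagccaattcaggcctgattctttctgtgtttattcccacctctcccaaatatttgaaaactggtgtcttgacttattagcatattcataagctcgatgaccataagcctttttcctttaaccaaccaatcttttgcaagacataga
Cd36, chr5:17835897-17836146, minus strand: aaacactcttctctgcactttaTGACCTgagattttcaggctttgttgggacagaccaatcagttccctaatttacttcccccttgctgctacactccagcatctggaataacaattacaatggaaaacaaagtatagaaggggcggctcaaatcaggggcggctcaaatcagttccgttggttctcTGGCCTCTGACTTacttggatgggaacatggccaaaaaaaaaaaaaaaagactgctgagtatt
Mogat1, chr1:78510810-78511059, plus strand: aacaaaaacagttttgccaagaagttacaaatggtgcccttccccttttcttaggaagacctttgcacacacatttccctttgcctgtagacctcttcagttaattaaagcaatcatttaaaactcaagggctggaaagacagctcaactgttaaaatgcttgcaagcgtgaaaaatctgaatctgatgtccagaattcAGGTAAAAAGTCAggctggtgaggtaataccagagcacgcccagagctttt
Cfd, chr10:79890603-79890852, plus strand: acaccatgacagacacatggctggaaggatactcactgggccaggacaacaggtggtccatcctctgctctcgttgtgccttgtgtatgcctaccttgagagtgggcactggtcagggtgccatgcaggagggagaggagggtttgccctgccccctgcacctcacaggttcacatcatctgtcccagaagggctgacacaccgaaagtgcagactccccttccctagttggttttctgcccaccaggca

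Windows were found for 6 of the 8 genes, 9 windows in all. A DR1 match lay in the windows of Cd36 and Mogat1. In Cd36 it began 63 bases before the start, on the strand opposite the gene, and read TGGCCTCTGACTT on the printed strand, with 2 mismatches. In Mogat1 it began 51 bases before the start, read AGGTAAAAAGTCA and also had 2 mismatches. Of all 32851 RefSeq mouse windows of this length, 1063 (3.24%) held such a match. The single repeat AGGTCA was found in Pparg windows 1 and 2, beginning 28 and 9 bases before the start, and in Cd36, beginning 228 bases before it. This shorter motif occurred in 4607 of all windows (14%). The DR1 motif holds 2 copies of the single repeat, so an exact DR1 match would count for both. The Pparg windows differed in base composition, with 82.4%, 63.6% and 40.8% G and C in windows 1, 2 and 3. The windows of Cidec and Plin4 held neither motif in these letters, nor did those of Cfd and Pparg window 3.

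The mRNA libraries held 19016275 to 45741794 counts and the H3K27ac promoter libraries 1967613 to 4964403. The first principal component of mRNA, 66.9% of the variance, placed the 3 high-fat-diet libraries on 1 side and the 3 chow libraries on the other. In H3K27ac, high-fat-diet replicate 1, also the shallowest library, lay apart from the other 5 on the first component (45.0%). Hepatocyte markers were abundant in every mRNA library, with a summed level over 8 genes of 100200 to 123600 CPM on the high-fat diet and 104600 to 110300 CPM on chow. A level in CPM is a count scaled by the library total and edgeR's TMM factor to a total of 1e+06, and fold changes are the high-fat diet over chow. Exocrine pancreas genes were lower on the high-fat diet, with a summed level over 11 genes of 10.02 to 176.8 CPM against 291 to 1785 CPM on chow, and 8 of the 10 tested passed the test. Skeletal muscle genes summed to 0.358 to 0.979 CPM over 5 genes on the high-fat diet and to 107.2, 1.07 and 0.591 CPM in chow replicates 1, 2 and 3. The part of these RNAs in the results on the 8 genes was not tested. Leaving out chow replicate 1 cannot address the pancreas genes, which summed to 772 and 291 CPM in chow replicates 2 and 3. Without chow replicate 1 the mRNA log2 fold change was 0.816 for Pparg, 1.32 for Cd36, 0.497 for Fabp4 and -1.105 for Cidec. It was 1.01 for Plin4 and 2.09 for Mogat1, and Cidea and Cfd are described below. No sequencing batch is named in the labels, and one that ran with diet cannot be told apart from it.

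**Figure D1:**
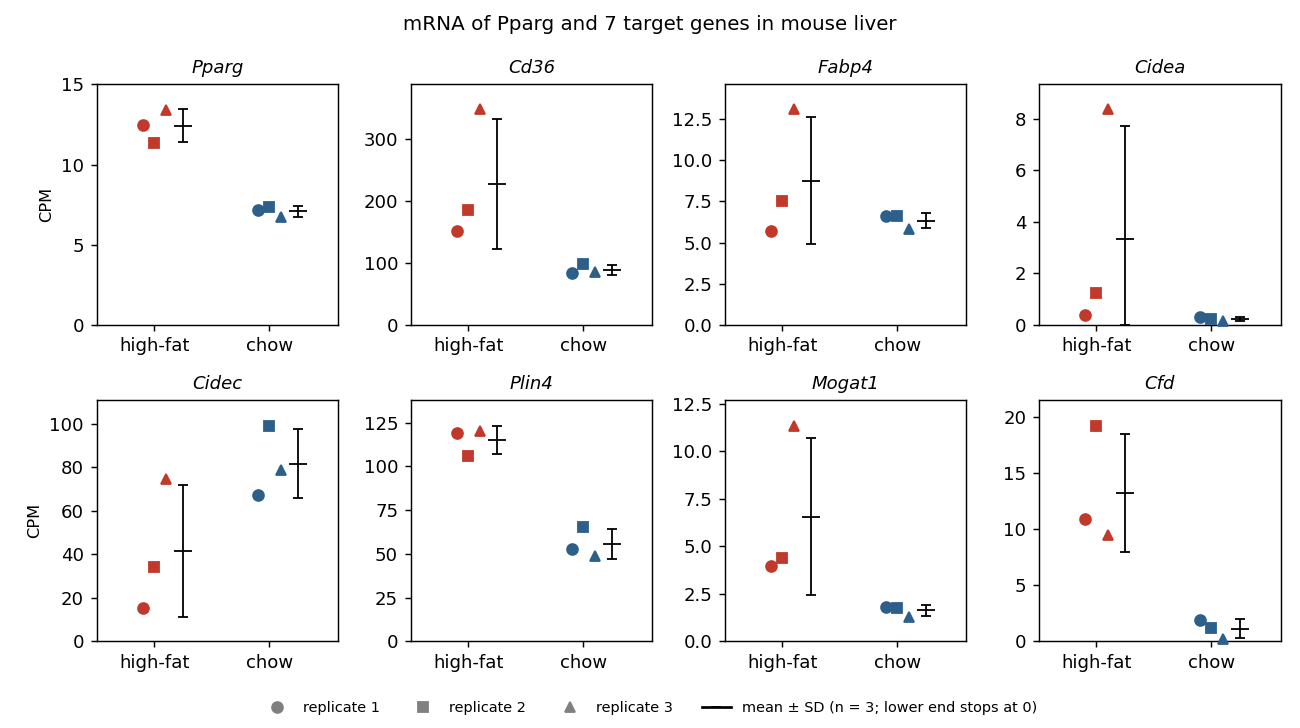
Levels of the 8 mRNAs in CPM (linear axes from 0, 1 panel a gene) in 3 high-fat-diet libraries (red, left) and 3 chow libraries (blue, right), with the mean and SD beside them. Pparg and Plin4 form tight groups far apart, whereas Cd36, Fabp4, Cidea, Cidec and Mogat1 spread widely among the high-fat-diet livers, with replicate 3 the highest of them in each. Cfd also spreads widely among them, with replicate 2 the highest.

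Pparg, Cd36, Plin4, Mogat1 and Cfd mRNA rose on the high-fat diet, by 1.75-fold for Pparg up to 10.65-fold for Cfd. Fabp4 and Cidec did not pass the test, and Cidea had too few counts to enter it. Calls are edgeR quasi-likelihood tests adjusted by Benjamini-Hochberg over all 12909 genes tested, at 0.05. Thus 5 of the 7 members tested rose and 0 fell. Of all genes tested, 35.6% passed, 18.0% in the higher and 17.6% in the lower direction. The members and the lists below were chosen with earlier results of these data known. Values over all genes are therefore given for scale, and cannot show that the members rose more often than genes picked blindly. Scaled by total counts and not by TMM factors, 63.0% of the genes called were higher on the high-fat diet, against 50.5% in the main fit, and the number of members called was also 5. The median log2 fold change of the 7 members tested was 1.05, beside 0.02 over all genes tested. In 5 of the 7 members tested every high-fat-diet library was above every chow library, as in 25.1% of all genes tested. Whole liver was sequenced, so more cells of a type and more RNA per cell cannot be told apart.

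The receptor itself, Pparg, was at 12.4, 11.4 and 13.4 CPM in high-fat-diet livers and at 7.18, 7.35 and 6.72 CPM in chow livers. The groups did not overlap, and the gap between them exceeded the spread within either diet. The means were 12.4 ± 1.03 CPM on the high-fat diet and 7.08 ± 0.325 CPM on chow (SD, n = 3 each), a log2 fold change of 0.81 (SE 0.113, edgeR adjusted p = 0.00125). These levels rest on 267 to 300 counts in the high-fat-diet libraries and 125 to 318 in the chow libraries. With any 1 library left out, the log2 fold change lay between 0.75 and 0.87 and passed the test each time.

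Cd36, a membrane transporter of long-chain fatty acids, was at 151.0, 184.8 and 347 CPM on the high-fat diet and at 82.9, 97.4 and 84.3 CPM on chow. All 3 high-fat-diet livers were above all chow livers, and replicate 3 stood well above the other two. The log2 fold change was 1.37 (SE 0.275, edgeR adjusted p = 0.00609). It was 0.93 without high-fat-diet replicate 3, and the gene passed in all 6 fits with 1 library left out.

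Fabp4, a fatty acid carrier of fat cells that macrophages and capillary endothelium also make, was at 5.69, 7.52 and 13.1 CPM in high-fat-diet livers and at 6.61, 6.60 and 5.80 CPM in chow livers. High-fat-diet replicate 1 lay below every chow library, so the groups overlapped. The log2 fold change of 0.47 (SE 0.276) did not pass (edgeR adjusted p = 0.220). It was 0.06 when high-fat-diet replicate 3 was left out, and 0.69 when replicate 1 was, which passed (adjusted p = 0.0448).

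Mogat1, an acyltransferase that makes diacylglycerol from monoacylglycerol, was at 3.96, 4.39 and 11.3 CPM on the high-fat diet and at 1.81, 1.77 and 1.29 CPM on chow. The groups did not overlap, and high-fat-diet replicate 3 was again the highest. Mogat1 had a log2 fold change of 1.99 (SE 0.419, edgeR adjusted p = 0.00754). Without that library it was 1.34 and still passed (adjusted p = 0.00252).

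Of the 3 lipid droplet genes, Plin4 rose in the main fit, with diet as its only term, Cidec did not pass it and Cidea did not enter it. Plin4, a perilipin of the droplet surface, was at 119.3, 106.2 and 120.2 CPM in high-fat-diet livers and at 52.6, 65.1 and 48.7 CPM in chow livers. The means were 115 ± 7.86 CPM on the high-fat diet and 55.5 ± 8.55 CPM on chow (SD, n = 3 each), and the groups lay far apart. Their log2 fold change was 1.05 (SE 0.116, edgeR adjusted p = 0.00045). Plin4 overlaps Hdgfl2 in RefSeq, listed in the files under its older symbol Hdgfrp2, and the library kit does not mark strand. Reads from shared bases therefore cannot be assigned to 1 gene. The log2 fold change of Hdgfrp2 was 0.36 (SE 0.119, edgeR adjusted p = 0.0467), smaller than that of Plin4.

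Cidec, also called Fsp27, promotes fusion of lipid droplets into larger ones. It was at 15.3, 34.2 and 74.6 CPM in high-fat-diet livers and at 67.3, 98.9 and 78.8 CPM in chow livers. High-fat-diet replicates 1 and 2 were below all chow livers, but replicate 3 lay inside the chow range, so the groups overlapped. The highest high-fat-diet library was 4.87 times the lowest, a spread reached by 0.914% of all genes tested, whereas the chow libraries spanned 1.47 times. The log2 fold change of -0.98 (SE 0.459) did not pass (edgeR adjusted p = 0.130). Without high-fat-diet replicate 3 it was -1.71 and passed (adjusted p = 0.00350). In the authors' deposited table Cidec had a log2 fold change of -0.75 with no p-value. Cidec overlaps the long noncoding gene Gm52871 in RefSeq.

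Cidea, a relative of Cidec best known from brown fat, had 8, 31 and 187 counts in high-fat-diet livers and 13, 4 and 3 counts in chow livers. Scaled for depth these were 0.373, 1.21 and 8.36 CPM on the high-fat diet and 0.293, 0.214 and 0.161 CPM on chow. High-fat-diet replicate 3 held most of them, while replicate 1 lay only just above the highest chow library. Cidea did not pass the filter on low counts. In a fit of 17954 genes without that filter its log2 fold change was 3.76 (SE 0.9997, edgeR adjusted p = 0.0196). When 1 chow library was left out Cidea entered the filtered fit and did not pass, with adjusted p from 0.0880 to 0.0966. Left out in turn, high-fat-diet replicates 2 and 3 each left Cidea below the filter, and without replicate 1 it passed (adjusted p = 0.00768). In the filtered fits that held Cidea, it entered through high-fat-diet replicates 2 and 3, where it was highest. The p-values of those fits are therefore not support for a rise. The authors' deposited table gave a log2 fold change of 1.64 with an adjusted p of 0.00301. In RefSeq the noncoding gene B430212C06Rik overlaps Cidea. It had 2, 8 and 34 counts on the high-fat diet and 17, 7 and 6 counts on chow, so it too was highest in high-fat-diet replicate 3.

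Cfd was at 10.9, 19.2 and 9.44 CPM in high-fat-diet livers and at 1.92, 1.18 and 0.215 CPM in chow livers. The groups did not overlap, and the chow libraries, with 85, 22 and 4 counts, differed among themselves by 8.92 times. With 4 counts in chow replicate 3, Cfd entered the filtered test partly through the high-fat-diet libraries, where it was higher. In the fit without that filter its log2 fold change was 3.42 (SE 0.460, edgeR adjusted p = 0.000476). In the main fit Cfd had a log2 fold change of 3.41 (SE 0.496, edgeR adjusted p = 0.00150). Without chow replicate 1 it was 4.23, a fold change more than 1.5 times larger, and without chow replicate 3 it was 3.01. In the authors' deposited table it was 2.52. Adipoq, the adiponectin gene of fat cells, was at 0.0466, 0.274 and 0.134 CPM on the high-fat diet and at 0.542, 0.214 and 0.107 CPM on chow. Its high-fat-diet values lay within or below its chow values, while within chow its libraries stood in the same order as for Cfd. Among the 7 adipocyte markers, Lep and Adrb3 lay the other way. Lep, the leptin gene, was at 0.0466, 0.235 and 0.0895 CPM on the high-fat diet and at 0.0226, 0 and 0 CPM on chow, from at most 6 counts a library. Adrb3, a receptor for adrenaline-like hormones, was at 9.51, 5.29 and 4.65 CPM on the high-fat diet and at 4.47, 2.47 and 3.01 CPM on chow, a log2 fold change of 0.92 that did not pass (edgeR adjusted p = 0.0505). The 7 adipocyte markers summed to 5.90 to 10.1 CPM on the high-fat diet and 3.16 to 6.34 CPM on chow. Adrb3 made up most of these sums. Ucp1 was at 0 in all high-fat-diet libraries, and Retn and Plin1 were at 0.203 CPM or less in every library. The mean of Plin1 was lower on the high-fat diet, at 0.0578 CPM against 0.121 CPM on chow. Of the 7 markers 2 entered the test and neither passed, with a median log2 fold change of 0.42. The part of fat cells in the Cfd result was not tested.

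**Figure D2:**
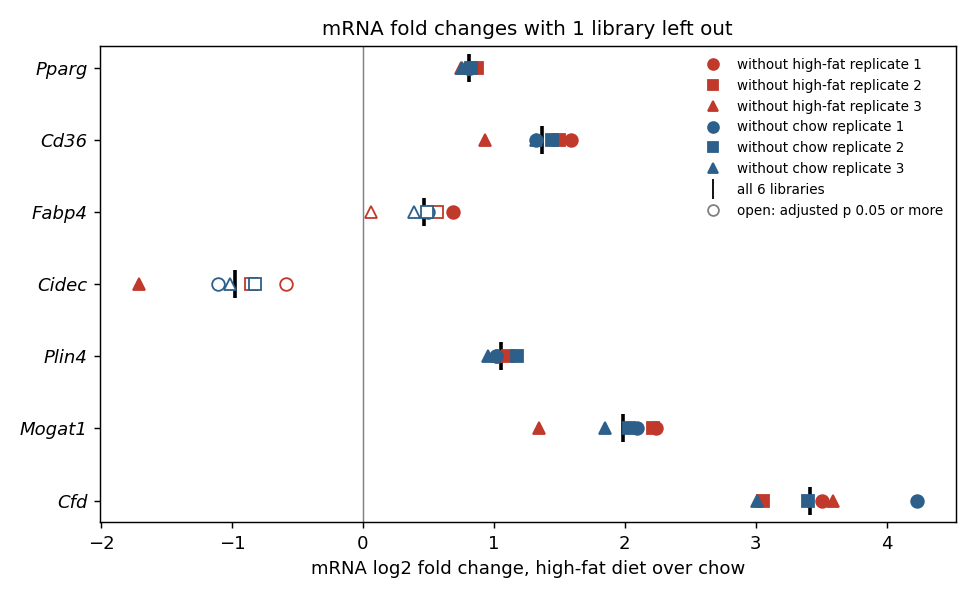
Log2 fold change of mRNA, high-fat diet over chow, for the 7 members tested with all 6 libraries (black bar) and with 1 library left out (red, a high-fat-diet library; blue, a chow library). Filled symbols passed the edgeR test and open symbols did not; Pparg and Plin4 hardly move, whereas leaving out high-fat-diet replicate 3 shifts Cd36, Fabp4, Cidec and Mogat1 to lower values.

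High-fat-diet replicate 3 was the highest and replicate 1 the lowest of the high-fat-diet livers in 5 of the 8 members, Cd36, Fabp4, Cidea, Cidec and Mogat1. Without Cidea, which was not tested, that was 4 of 7, beside 22.5% of all genes tested. The spread was wide in these members. The highest high-fat-diet library was 2.30 times the lowest for Cd36 and for Fabp4 and 2.85 times for Mogat1, against a median of 1.24 times over all genes tested. For Pparg and Plin4 it was 1.18 and 1.13 times. Cfd, highest in replicate 2, also spread widely, at 2.035 times. Of 10 macrophage markers, 7 were highest of the high-fat-diet livers in replicate 2, and Cd68, Trem2 and Gpnmb were highest in replicate 3. Gpnmb, a gene of lipid-laden macrophages, was at 0.839, 1.37 and 9.80 CPM on the high-fat diet and at 0.632, 0.322 and 0.645 CPM on chow (log2 fold change 2.84, edgeR adjusted p = 0.0428). Trem2, another such gene, was at 1.07, 0.823 and 2.33 CPM on the high-fat diet and at 0.429, 0.483 and 0.860 CPM on chow, and did not pass (edgeR adjusted p = 0.0594). The summed level of all 10 macrophage markers was 229.8, 438.8 and 320.4 CPM on the high-fat diet and 189.3, 209.8 and 358.6 CPM on chow, so it was not highest in replicate 3. None of the 10 was at 0, and 2 of them, Gpnmb and Cd68, rose, a share near the 18.0% of all genes tested. With 6 counts in chow replicate 2, Gpnmb entered the filtered test partly through the high-fat-diet libraries, where it was higher. A fit of Gpnmb without that filter is not reported here. The part of macrophages in the levels of the 8 genes was not tested.

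**Figure D3:**
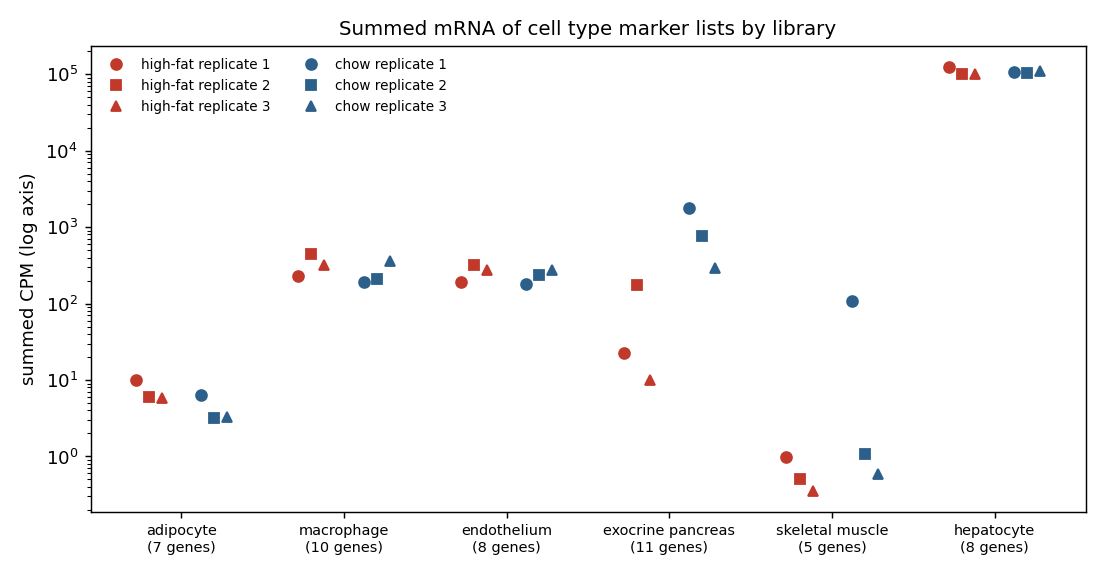
Summed CPM (log axis) of cell type marker lists in each mRNA library, high-fat diet in red at the left of each pair and chow in blue at the right. Hepatocyte sums are alike, exocrine pancreas sums are lower in all 3 high-fat-diet libraries, and the skeletal muscle sum is high in chow replicate 1 alone.

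The mRNA profile of Pparg over the 6 libraries was compared with that of every other gene tested, as the root mean square distance of log2 CPM centred on each gene's mean. The nearest 5 were Vac14 (distance 0.0329), Nucb1 (0.0495), Gcc1 (0.0496), Tmem143 (0.0547) and Actb (0.0611). Vac14 was at a log2 fold change of 0.82, Nucb1 at 0.74, Gcc1 at 0.71, Tmem143 at 0.75 and Actb at 0.69. Each passed the edgeR test, but they were picked in the same libraries for closeness to Pparg. Their passing is therefore not a separate result. Among the members Plin4 was nearest to Pparg at 0.163, with 420 genes nearer. Fabp4 followed at 0.378, Cd36 at 0.402 and Mogat1 at 0.669. The farthest were Cidec at 1.21 and Cfd at 1.74, with 12714 and 12838 of 12908 genes nearer. The profiles were centred but not scaled, so a larger change than that of Pparg also gives a larger distance. Cfd, at a log2 fold change of 3.41, moved in the direction of Pparg, whereas that of Cidec was -0.98.

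Genes that act with PPARγ moved mostly upward where they moved. Of 18 partners and regulators, 7 rose, 1 fell and 10 did not pass, with a median log2 fold change of 0.15, beside 18.0% higher and 17.6% lower of all genes tested. Ppargc1b, a coactivator, was at 7.60, 7.17 and 7.20 CPM on the high-fat diet and at 4.96, 4.45 and 3.60 CPM on chow (log2 fold change 0.74, SE 0.150, edgeR adjusted p = 0.00636). Cebpa, a transcription factor that acts with PPARγ in fat cells, was at 482, 409 and 378 CPM on the high-fat diet and at 293, 263 and 237 CPM on chow (log2 fold change 0.68, edgeR adjusted p = 0.00340). The related coactivator Ppargc1a, which supports fasting glucose production in liver, was lower, at 11.6, 9.88 and 13.02 CPM on the high-fat diet and at 15.6, 17.2 and 17.5 CPM on chow (log2 fold change -0.54, edgeR adjusted p = 0.00993). That call was lost with limma on the authors' normalized signal (adjusted p = 0.0558). In the main fit Ppargc1b and Ppargc1a thus moved in opposite directions. Chosen after their values were seen, the DNA partner Rxra (0.49) and the related receptors Ppara (0.31) and Ppard (0.51) also rose, as log2 fold changes.

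Other lipid genes linked to PPARγ moved both ways. Of 23 genes, 20 were tested, of which 7 rose, 6 fell and 7 did not pass, with a median log2 fold change of -0.15, beside the same 18.0% higher and 17.6% lower of all genes. Vldlr, a lipoprotein receptor, was at 6.29, 9.52 and 17.1 CPM on the high-fat diet and at 3.45, 3.06 and 2.58 CPM on chow (log2 fold change 1.84, edgeR adjusted p = 0.00451). It too was highest in high-fat-diet replicate 3 and lowest in replicate 1. Fitm1, which helps fat partition into droplets, was at 44.1, 55.9 and 43.6 CPM on the high-fat diet and at 22.4, 20.5 and 14.3 CPM on chow (log2 fold change 1.32, edgeR adjusted p = 0.000907). Gyk, glycerol kinase, was at 176.7, 160.9 and 179.4 CPM on the high-fat diet and at 372, 422 and 384 CPM on chow (log2 fold change -1.19, edgeR adjusted p = 9.5e-05). The 3 genes not tested, Plin1, Adipoq and Aqp7, had means under 0.5 CPM on both diets.

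Close relatives and partners of the members also moved both ways. Of 16 genes 14 were tested, of which 5 rose, 3 fell and 6 did not pass, with a median log2 fold change of 0.10, again beside 18.0% higher and 17.6% lower of all genes. Among perilipins, Plin2, the common droplet coat of hepatocytes, was at 866, 766 and 726 CPM on the high-fat diet and at 1209, 1478 and 1216 CPM on chow (log2 fold change -0.73, SE 0.123, edgeR adjusted p = 0.00289). Plin5, the gene next to Plin4, was at 138.6, 112.5 and 103.0 CPM on the high-fat diet and at 164.6, 163.7 and 153.8 CPM on chow (log2 fold change -0.45, SE 0.112, edgeR adjusted p = 0.0159). Plin2 and Plin5 thus fell where Plin4 rose. Dgat2, which adds the last acyl chain to make triglyceride from the product of Mogat1, was at 744, 740 and 781 CPM on the high-fat diet and at 343, 303 and 282 CPM on chow (log2 fold change 1.29, edgeR adjusted p = 0.00012). Dgat1, named after its values were seen, has the same activity and fell (log2 fold change -0.41, edgeR adjusted p = 0.00809). Fabp5, a relative of Fabp4, was at 3.73, 4.70 and 3.58 CPM on the high-fat diet and at 2.50, 2.95 and 2.90 CPM on chow (log2 fold change 0.54, edgeR adjusted p = 0.0437), and this call was lost in 4 of 6 fits with 1 library left out, with DESeq2 (adjusted p = 0.0871) and with no count filter (edgeR adjusted p = 0.0627). Plin5 was lost in 2 of 6 such fits.

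H3K27ac was then compared at the promoters of the same genes, next to their mRNA. Only the Pparg promoter passed, 1.54-fold higher on the high-fat diet. Of the 8 promoters, all of which entered the test, 1 rose and 7 did not pass. Of all 20891 promoters tested, 0.235% passed in either direction and 0.187% as higher, while 2924 had an unadjusted p under 0.05. In Pparg, Cd36, Cidea and Cfd every high-fat-diet library was above every chow library, as in 9.73% of all promoters tested. The median log2 fold change of the 8 promoters was 0.17, beside -0.00296 over all promoters tested.

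The Pparg promoter had 81.4, 80.8 and 66.2 CPM of H3K27ac in high-fat-diet livers and 50.6, 53.2 and 45.5 CPM in chow livers. The lowest high-fat-diet library was above the highest chow library. The log2 fold change was 0.62 (SE 0.105, edgeR adjusted p = 0.0122), and it was 0.58 without high-fat-diet replicate 1, the library that lay apart (adjusted p = 0.000767). The call was lost without chow replicate 1 (adjusted p = 0.157), chow replicate 2 (0.0526) or chow replicate 3 (0.159), while the log2 fold change lay between 0.55 and 0.72 in all 6 such fits. In the authors' deposited table the log2 fold change of this promoter was 0.54, with an adjusted p of 0.00692. Which of the 3 Pparg starts the authors counted is not given in the sources used here.

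The Cfd promoter had 60.1, 58.5 and 60.9 CPM of H3K27ac in high-fat-diet livers and 39.4, 51.5 and 43.8 CPM in chow livers. The groups did not overlap, but the log2 fold change of 0.44 (SE 0.112) did not pass (edgeR adjusted p = 0.0825). It passed without high-fat-diet replicate 2 (adjusted p = 0.0420). The Cidea promoter had 25.3, 25.4 and 26.5 CPM on the high-fat diet and 21.2, 18.9 and 16.8 CPM on chow. These groups did not overlap either, and the log2 fold change of 0.45 (SE 0.174) did not pass (edgeR adjusted p = 0.242). The 3 high-fat-diet libraries were close together at this promoter, within 1.05 times of each other, whereas Cidea mRNA spanned 22.4 times among the high-fat-diet mRNA libraries.

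The other 5 promoters had log2 fold changes between -0.11 and 0.20. Cd36 had 17 to 31 counts in the high-fat-diet libraries and 18 to 35 in the chow libraries, so its log2 fold change of 0.20 had an SE of 0.256. For Fabp4 the log2 fold change was 0.14 (SE 0.168), for Cidec -0.09 (SE 0.0941), for Plin4 -0.11 (SE 0.114) and for Mogat1 -0.07 (SE 0.157). The edgeR adjusted p of these 5 promoters ran from 0.698 to 0.875. Plin4 had 108.2, 161.9 and 146.9 CPM on the high-fat diet and 152.7, 163.0 and 142.8 CPM on chow, so 1 low library, high-fat-diet replicate 1, set the sign, which turned to 0.02 without it. Mogat1 had 25.8, 37.1 and 31.8 CPM on the high-fat diet and 39.2, 29.6 and 31.7 CPM on chow. The groups of both promoters overlapped, although both mRNAs rose. Of the 3 lists of partners, lipid genes and relatives, none of 18, 23 and 16 promoters passed the edgeR test.

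**Figure D4:**
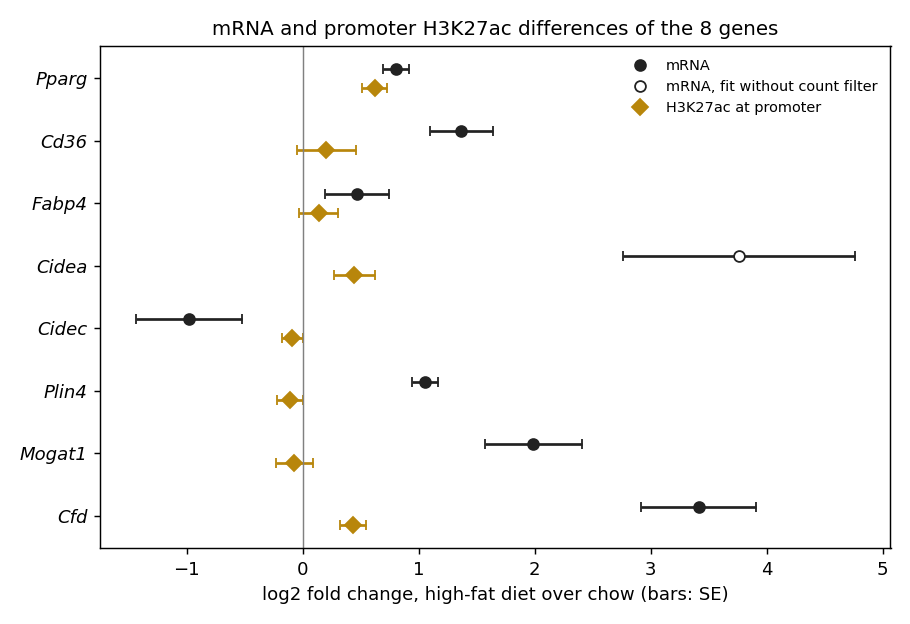
Log2 fold change, high-fat diet over chow, of mRNA (circles) and of H3K27ac at the promoter (diamonds) for each gene, with bars of 1 SE; the open circle is Cidea in the fit without a count filter. The 2 measures are close for Pparg, at 0.81 for mRNA and 0.62 for H3K27ac, while for Plin4 and Mogat1 the mRNA is at 1.05 and 1.99 and the promoter mark is near 0.

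**Figure D5:**
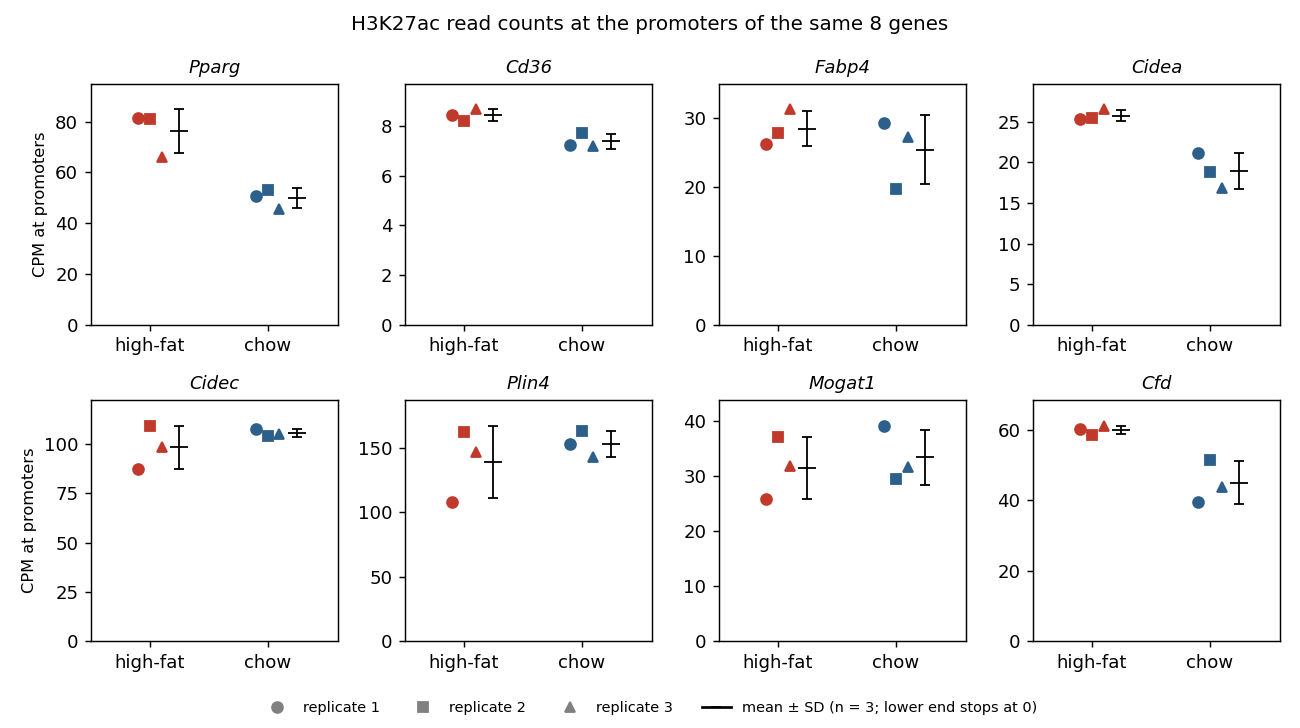
H3K27ac at the promoters of the 8 genes in CPM (linear axes from 0), with high-fat-diet libraries in red at the left, chow libraries in blue at the right, and the mean and SD beside them. Pparg, Cfd, Cidea and Cd36 show groups that do not overlap, and Fabp4, Cidec, Plin4 and Mogat1 show groups that do.

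Side by side, the mRNA and promoter log2 fold changes were 0.81 and 0.62 for Pparg, 1.37 and 0.20 for Cd36, 1.05 and -0.11 for Plin4, 1.99 and -0.07 for Mogat1, and 3.41 and 0.44 for Cfd. These 5 genes are those whose mRNA passed the test. Cidec, whose mRNA did not, was at -0.98 for mRNA and -0.09 for the promoter, and Fabp4 at 0.47 and 0.14. The mRNA and H3K27ac fits are separate, and the difference between them was not tested.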

How the data were processed

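Liver mRNA and H3K27ac were measured in 3 libraries per diet, grouped by sample title. Per the submitters' processing notes, the authors used TopHat 1.4.0, HTSeq, DESeq2 1.0.18 and bedtools for mRNA, and Bowtie 0.12.7, MACS 1.4.0rc2, bedtools and DESeq2 for ChIP, on mm9. The deposited count tables hold raw counts per gene and per promoter, and the promoter width is not given in the sources used here. The authors' normalized mRNA signal is not 1 factor per library, since its ratio to the count differs between genes, and its method is not given in the sources used here. The authors' deposited tables hold log2 fold changes and p-values.

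Counts were fitted with edgeR 4.0.16 in R 4.3.3 (filterByExpr by diet, TMM factors, two-sided quasi-likelihood test with diet as the only term), with p-values adjusted by Benjamini-Hochberg over each table. Nothing in the labels says that libraries of a diet came from separate mice, so p-values measure the spread between these libraries. The script was tested on simulated data. Alternatives were other scalings, DESeq2 1.42.0, no filter (at least 1 count in all), a replicate block, each library left out, and limma 3.58.1 on log2 of the authors' signal plus 1, added after seeing the data. Beside the 8 members the text names, from each list, the 2 largest changes in each direction that passed without overlap, and the 5 profiles nearest to Pparg. The members and lists were chosen with earlier results of these data known. Peaks in the union lists were not used here, for want of gene positions on mm9.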

Additional observations from a re-analysis of the deposited data

How the results depend on the processing

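Of the 12909 genes tested for mRNA, 4590 passed. The count lay within 1.5 times of this under every alternative run except leaving out chow replicate 2, and leaving out libraries gave 2899 (without chow replicate 2) to 5163. The number of members called was 5 in the main fit and 5 to 7 with 1 library left out. The 7, without high-fat-diet replicate 1, include Cidea, whose p-value in that fit is not support for a rise. For H3K27ac 49 promoters passed, and 470 passed with the replicate block. Leaving out libraries gave 0 to 736 promoters and 0 to 2 members (0 without any 1 chow library, 2 without high-fat-diet replicate 2), so the number of promoter calls depended on which library was left out. Without chow replicate 2, where edgeR called 0 promoters, 2431 had an unadjusted p under 0.05, and DESeq2 on all libraries called 41.

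For equal replicate numbers, correlations of deviations from the diet means were 0.0354, -0.0409 and 0.136 for mRNA and 0.0919, -0.0059 and 0.0437 for promoters. For unequal numbers they ran from -0.117 to 0.0898 for mRNA and from -0.131 to 0.12 for promoters. These few values cannot settle whether the numbers pair the libraries. With the replicate block 4462 genes passed, and 6 members, Cidec among them (log2 fold change -1.24, adjusted p = 0.0385). The block changed no other member's call. Among the genes picked by rule from the lists and the 5 profiles nearest to Pparg, Fabp5 lost its call (edgeR adjusted p = 0.0566). The sign reversed for 2 promoters that did not pass: Plin4, from -0.229 to 0.0237 over the fits with 1 library left out, and Mogat1, from -0.206 to 0.0587. These values turned positive without high-fat-diet replicate 1, and for Mogat1 also without chow replicate 1. A tally over the alternatives covered the members tested in the main fit, Cidea mRNA thus left out, the genes picked by rule and the 5 nearest profiles. In it 331 of the values kept direction and side of the threshold, 13 lost the call, 4 gained it and 3 reversed. The 4 were Cidec mRNA under 2 alternatives, Fabp4 mRNA and the Cfd promoter. Other genes named in the text, such as Rxra, Ppara, Ppard, Dgat1, Hdgfrp2, Gpnmb, Cd68, Trem2 and Adrb3, are not in this tally. Promoters of few counts, such as Cd36, limit what a difference could show. The planned count test in peaks at the members was not run, because gene positions on mm9 were not used here.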
